A study of Rattus norvegicus with 4 samples.

Results

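Interferon regulatory factors (IRFs) and signal transducers and activators of transcription (STATs) are the transcription factors that carry interferon and cytokine signals to the genome. Described here are 9 of these genes in the rat macrophage line NR8383: Irf1, Irf2, Irf3, Irf4, Irf5, Irf7, Irf9, Stat2 and Stat3. The members were every gene probe whose accession maps to one of these symbols in the rat RefSeq table, which gave 13 probes for the 9 genes, of 45598 gene probes in all. All 9 genes had a value on every array, as did 16526 genes with a symbol over the whole array.

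NR8383 was started from lung lavage of a normal rat and grows partly attached and partly floating. All cultures described received zinc iron oxide, the ferrite ZnFe2O4 named NRCWE021 in the labels, at 17 µg/mL during 4 h, after 20 passages. Their RNA was read on 4 one-colour arrays, 1 for each of 4 biological replicates. The study is described as a comparison with unexposed cells, whose arrays are not analysed here. What can be given is which of these genes were detected in exposed cells, at what signal and with what spread, with no statement on the effect of exposure. In a bulk sample, fewer cells that express a gene and less RNA per cell cannot be told apart.

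In the resting cell IRF3 and the STATs wait in the cytoplasm. Sensors of foreign nucleic acid and Toll-like receptors lead to phosphorylation of IRF3, IRF5 and IRF7, which switch on interferon genes and inflammatory cytokines. Secreted interferon then acts through its receptors and the Janus kinases (JAKs), and STAT2 and IRF9 are parts of the complex that binds the interferon-stimulated response element (ISRE). STAT dimers bind a second site, the gamma-activated sequence (GAS). IRF1 and IRF2 share binding sites, with IRF1 mainly an activator and IRF2 mainly a repressor, IRF4 acts in alternatively activated macrophages, and STAT3 relays signals of interleukin-6 and interleukin-10.

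The factors of this family bind known letter patterns, and promoter stretches of members that hold such letters are shown as sequence, with no measure of binding. Promoters from 250 bases before to 50 bases after the gene start were taken from RefSeq (build GRCr8) and matched 8 of the 9 members, all but Irf2. They were searched on both strands for the ISRE letters GAAA, any 2 bases, GAAA, and the GAS letters TTC, any 3 bases, GAA, which read the same on both strands. The ISRE letters were in 1 of the 8 promoters, that of Irf7, against 3.92% of 33469 promoters of 300 bases, and the GAS letters were in those of Irf1 and Irf9, against 8.87%. In each line the matched letters are in capitals, upstream of the start, and the strand is that of the gene.
Irf7, chr1:205800057-205800118, minus strand, ISRE on the reverse strand, 69 to 60 bases before the start: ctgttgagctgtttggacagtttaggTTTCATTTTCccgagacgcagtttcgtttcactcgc
Irf1, chr10:38417767-38417827, plus strand, GAS 142 to 134 bases before the start: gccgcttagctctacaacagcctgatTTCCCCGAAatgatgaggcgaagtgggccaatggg
Irf9, chr15:33065711-33065771, plus strand, GAS 99 to 91 bases before the start: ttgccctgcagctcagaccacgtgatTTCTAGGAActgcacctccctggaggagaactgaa
A match is a description of the sequence and not a measured binding site. The arrays' own probe sequences were not used here, so the exon or untranslated region that each probe reads is not stated.

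The 4 arrays, all on 1 slide, were not alike, and this touches every value below. The scanner software marks a spot as well above background, and a probe with that mark, or a gene with any such probe, is called detected on that array. The share of gene spots so marked was 47.0%, 89.5%, 70.5% and 41.6% on replicates 1 to 4. The dimmest of 10 spike-in control RNAs, which do not come from the cells, read 3.83 and 3.92 intensity units on replicates 1 and 4 but 537 and 109 on replicates 2 and 3, whereas the brightest spanned 21914 to 44221. The 308 negative control spots had a median of 3.45, 23, 12.9 and 3.34 on replicates 1 to 4. On replicates 2 and 3 the negative control spots were therefore also higher, but by far less than the dimmest spike-in. Of the gene probes, 27748 had no mark on replicate 1 or on replicate 4. These are called dim probes, and their 95th percentile was 1250 on replicate 2 and 268 on replicate 3. Detection is given first by the scanner's flag and then against these values. Markers of the macrophage, fixed as a list, were detected on replicates 1 and 4 for 8 of 10 measured genes, among them Cd68, Lyz2 and Tyrobp, while Marco and Adgre1 were not. The same count was 0 of 7 epithelial, 1 of 5 fibroblast, 3 of 8 T and NK cell, 1 of 3 B cell and 2 of 4 neutrophil markers, beside 45.9% of all genes, so the last 3 counts say little about which cells were present. Among those detected were Cd4, Pax5 and S100a8, while Cd3d, Cd3e, Cd3g, Cd79b and Elane were not. On replicates 1 and 4 the 7 epithelial markers read between 2.84 and 11 units and 4 of the fibroblast markers between 3.30 and 14.1. The other fibroblast marker, Dcn, was detected on all arrays and read 161 and 80.0 on replicates 1 and 4.

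All 9 genes were detected on both replicate 1 and replicate 4, where 45.9% of all genes were. On all 4 arrays 8 of the 9 were, against 42.4% of all genes, and the exception was Irf2, which missed on replicate 3. With the brightest probe of each gene alone the count was again 8 of 9. The strength of the signal on replicates 2 and 3 was another matter. Above the 95th percentile of dim probes lay 2 of the 9 genes on replicate 2, where 19.3% of all genes did, and 5 of 9 on replicate 3, where 28.8% did. On all 4 arrays 2 genes passed, Irf3 and Stat2, against 15.4% of all genes, a share of the members close to the background. Against the dimmest spike-in plus 3 SD of its spots, Irf5 passed as well, giving 3 of 9 on all 4 arrays beside 15.4% of all genes. On replicate 2 alone the same 3 genes passed, against 22.9%, and on replicate 3 there were 5, against 20.4%. The 2 thresholds passed equal numbers of genes on all 4 arrays, 2546 each, of which 2327 were shared.

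**Figure D1:**
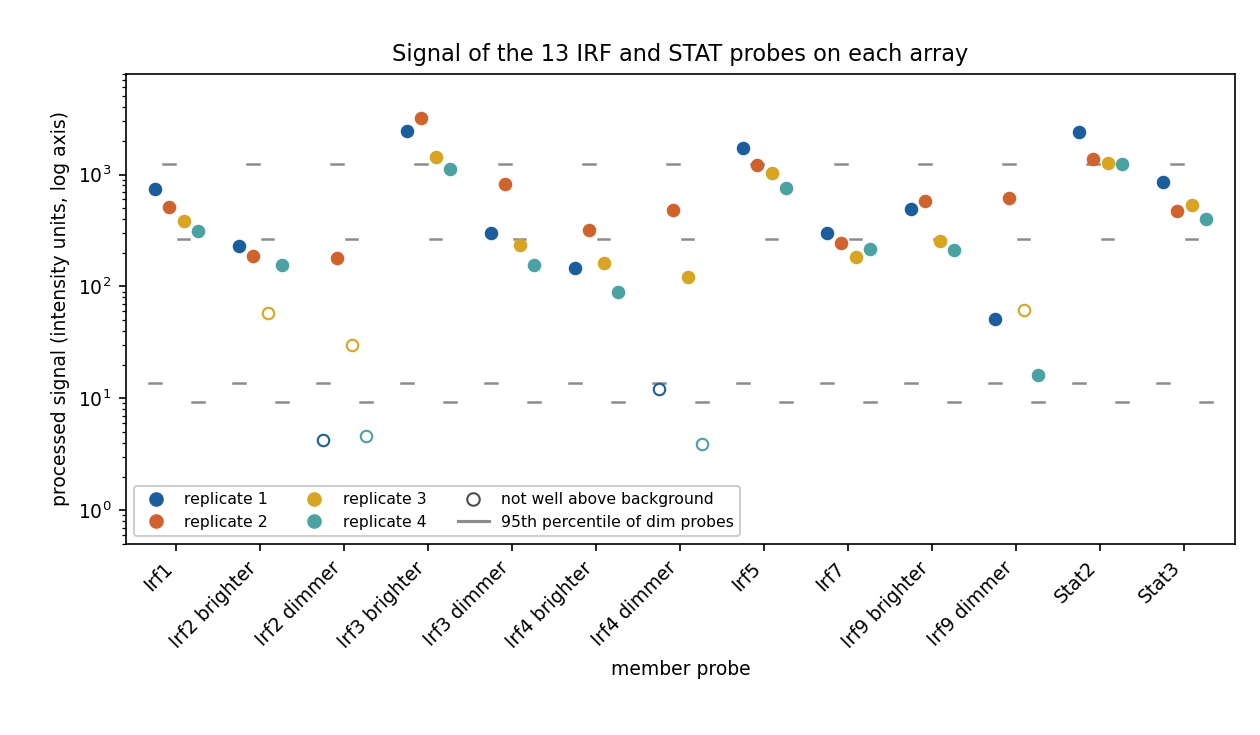
Processed signal (intensity units, log axis) of the 13 IRF and STAT probes, with a point for each of the 4 arrays in its own colour, open where the probe was not detected; grey ticks mark the 95th percentile of dim probes on that array. The brighter Irf3 probe and the Stat2 probe lie above the tick on all 4 arrays, while all other probes lie under the tick of replicate 2, at 1250.

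Among the factors that switch on interferon genes, Irf3, which is present before any stimulus, has the most repeated measurement, since its brighter probe is printed as 10 spots on each array. Its signal was 2474, 3211, 1440 and 1121 on replicates 1 to 4. Replicate 2 was the highest and replicate 4 the lowest. The single spots ran from 2229 to 2731 on replicate 1 and from 3002 to 3544 on replicate 2, so these arrays did not overlap. On replicate 3 they ran from 1257 to 1674 and on replicate 4 from 759 to 1411, which do overlap. The SD between spots was 0.09, 0.07, 0.12 and 0.32 log2 units on replicates 1 to 4, over 9, 9, 9 and 10 spots after flagged spots were left out. This is the only member for which the error within an array is measured well, and it was widest on replicate 4. The second Irf3 probe, with the same accession, read 298, 815, 237 and 155, and was detected on all 4 arrays.

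Irf7, the factor that interferon itself induces and that amplifies the response, read 300, 246, 183 and 215 on replicates 1 to 4. It was detected on each of these, yet on replicates 2 and 3 it lay under the 95th percentile of dim probes. Irf5, which drives inflammatory cytokines in macrophages downstream of Toll-like receptors, read 1723, 1216, 1031 and 751. Replicate 1 was the highest and replicate 4 the lowest, and on replicate 2 the gene stayed just under the dim-probe value of 1250 while passing the spike-in threshold of 1119.

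Irf1 and Irf2 compete for the same sites. Irf1 read 744, 515, 383 and 311 on replicates 1 to 4, detected on each array and above the dim-probe value on all but replicate 2. Irf2 has 2 probes, and they disagreed. The brighter one, designed to a predicted transcript, read 228, 189, 58.4 and 155 and was detected on all arrays but replicate 3. The other, designed to the curated transcript, read 4.21, 181, 30.1 and 4.61, was detected on replicate 2 alone, and so gives no level. Over all genes, 425 were like Irf2 in being detected on every array except replicate 3.

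Irf4, a factor of alternatively activated macrophages and of lymphocytes, was detected on all 4 arrays. Its brighter probe, printed as 2 spots, read 146, 319, 163 and 89.4 on replicates 1 to 4. Its 2 spots were 144 and 149 on replicate 1 but 220 and 464 on replicate 2, a ratio of 2.11. The second Irf4 probe read 12.1, 486, 121 and 3.92, and was marked on replicates 2 and 3 alone, so the probes disagreed on detection here too.

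Irf9 and Stat2 encode the DNA-binding partner and the transactivating STAT of the interferon complex. Stat2 read 2405, 1387, 1260 and 1243 on replicates 1 to 4, and replicates 2, 3 and 4 lay close together. Stat2 is read by 1 spot of 1 probe, so no error within an array can be given for it, and the same holds for Irf1, Irf5, Irf7 and Stat3. The brighter Irf9 probe, designed to a predicted transcript, read 494, 579, 255 and 213 and was detected on all 4 arrays. The other Irf9 probe read 51.4, 614, 61.1 and 16.3 and was not detected on replicate 3. The Irf9 probes thus disagreed on detection on replicate 3.

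Stat3, the factor of interleukin-6 and interleukin-10 signalling, read 865, 472, 538 and 401. It was detected on all arrays and above the dim-probe value on each but replicate 2. It was also the only chosen probe of the 9 with a lower signal on replicate 2 than on replicate 3, at a ratio of 0.877.

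How a member's signal on replicate 2 related to that on replicate 1 followed how bright it was. The dim Irf2 probe was 42.9 times as bright on replicate 2 as on replicate 1, against a median of 79.1 over the 24306 probes under 10 units on replicate 1. The second Irf4 and Irf9 probes were 40.1 and 12.0 times as bright, against a median of 16.7 for probes from 10 to 100 units. Irf1, Irf7, Irf9 and Stat3 by their chosen probes, from 300 to 1000 units, had ratios of 0.545 to 1.17, against a median of 1.21. From 1000 to 3000 units, Stat2, Irf5 and Irf3 had ratios of 0.577, 0.706 and 1.30, against a median of 0.811. Each of the 13 probes lay between the 5th and 95th percentile of its own class, apart from Stat3, whose ratio of 0.545 was below the 5th percentile of 0.632.

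**Figure D2:**
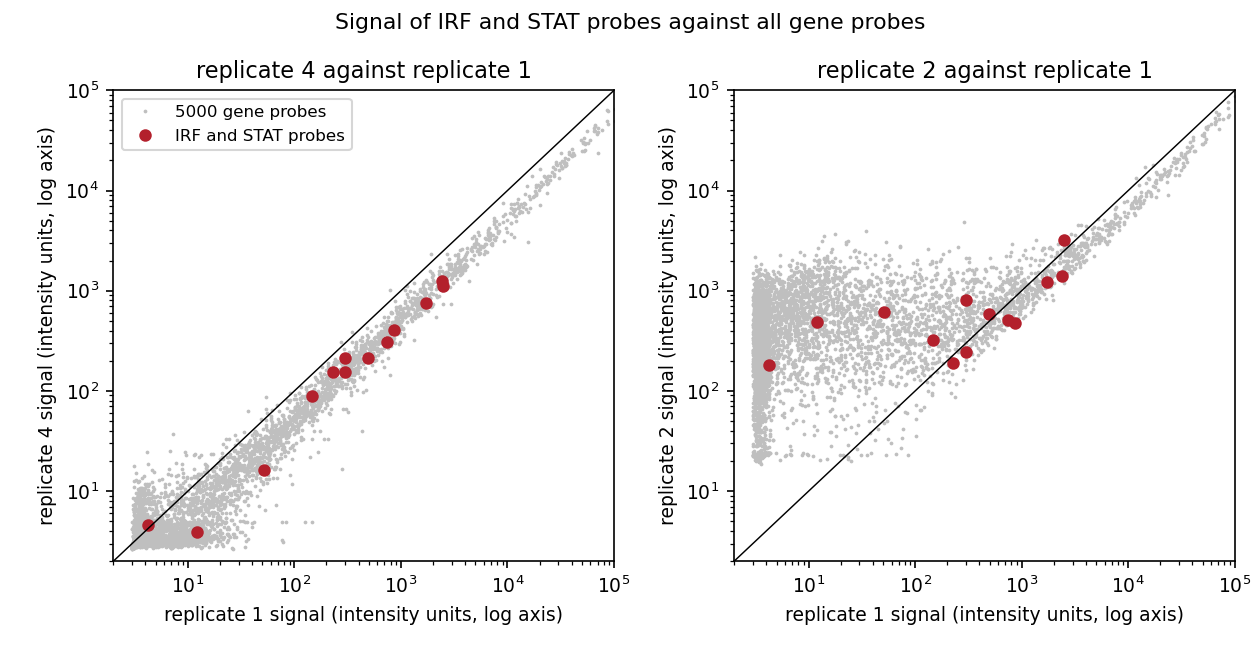
Signal (intensity units, log axes) on replicate 4, left, and replicate 2, right, against replicate 1 for 5000 gene probes drawn at random (grey) and the 13 IRF and STAT probes (red); the line marks equal signal. On the left the members lie along a narrow band, and on the right the probes that were dim on replicate 1 spread upward, with the Irf2 probe of 4.21 units on replicate 1 at 181 on replicate 2.

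Levels were then expressed as log2 signal minus the array's own 75th percentile of gene probes, with mean ± SD over n = 4 arrays. Levels of different probes are not set against each other. Irf1 had a level of 1.48 ± 1.78, Irf2 of -0.24 ± 2.10, Irf3 of 3.52 ± 1.43 and Irf4 of -0.03 ± 1.11. Irf5 had a level of 2.77 ± 1.76, Irf7 of 0.49 ± 1.87, Irf9 of 1.09 ± 1.5, Stat2 of 3.19 ± 1.97 and Stat3 of 1.72 ± 1.94. The median over the 9 genes was 1.48, beside -1.43 over all 16526 genes. On the single arrays the median of the 9 was 3.07, -0.72, 0.80 and 2.78, and that of all genes -2.04, -0.62, -0.59 and -2.0. On replicate 2 the members' median was therefore below that of all genes, and on the other arrays above it.

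The SDs depended on the scale. For all 9 genes replicate 2 was the lowest array under the 75th percentile. Scaled on the 3 brightest spike-in probes, replicate 2 was the highest for 7 of 9 and the lowest for 0. Scaled on the 75th percentile of the probes detected on all arrays, it was the lowest for 5 and the highest for 2. The median SD of the 9 genes was 1.78 under the first scaling, 0.42 under the second and 0.36 under the third. With spike-in scaling Stat3, Stat2 and Irf7 had SDs of 0.26, 0.28 and 0.29, and Irf2, Irf4 and Irf3 had SDs of 0.89, 0.84 and 0.71. No order of the 4 cultures in any member can be read from these arrays without choosing a scale.

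**Figure D3:**
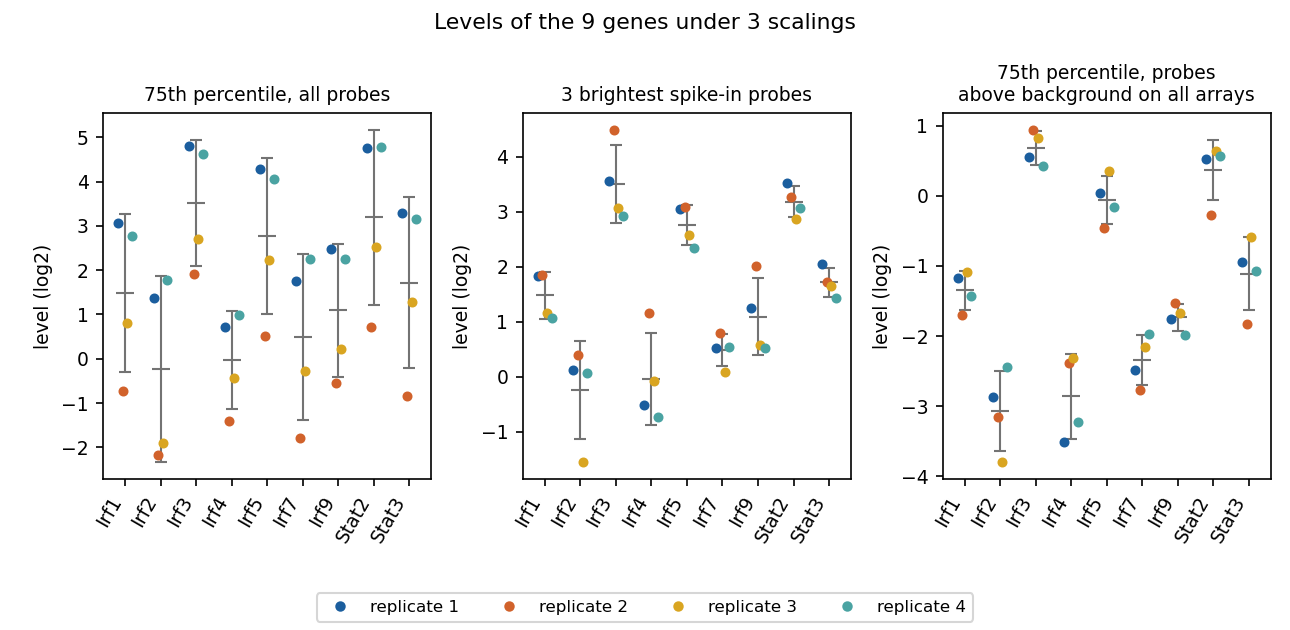
Level (log2) of the 9 genes on each array (points, 1 colour per replicate) with mean and SD over n = 4 (grey) under 3 scalings, each panel with its own axis. Replicate 2 is the lowest point for 9 of 9 genes on the left and the highest for 7 of 9 in the middle.

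Replicates 1 and 4 were close, and their difference can be read gene by gene after the shift common to all genes is taken off. Over 7544 genes detected on both by their chosen probe, the median of replicate 1 minus replicate 4 was 0.96 log2 units before scaling and -0.01 after. Relative to that median, Irf1 differed by 0.30, Irf9 by 0.25, Irf5 by 0.24, Irf3 by 0.18 and Stat3 by 0.15 toward replicate 1. Stat2 differed by -0.01, Irf4 by -0.25, Irf2 by -0.40 and Irf7 by -0.48, the last 3 toward replicate 4. The median size was 0.25 for the 9 genes and 0.21 for all genes, 90% of which lie between the 5th percentile of -0.59 and the 95th of 0.60. Every member lay inside those bounds, and that of Irf7 exceeded the size seen in 83.5% of genes. The order of the members depended on the processing. With both probes of a gene averaged, Irf4 turned to 0.22 and Irf2 reached -0.74, but their second probes were detected on neither replicate 1 nor replicate 4. With normexp background correction Irf7 was at -0.21 and Stat3 at 0.59, and in the deposited value table they were at -0.23 and 0.60. With 1 array per culture these differences have no test. Between replicates 2 and 3, relative to all genes, Stat3 differed by -1.31 and Stat2 by -0.99, both past the 5th percentile of -0.96. Their sizes exceeded those of 93.4% and 82.6% of genes. The other 6 members detected on all arrays ran from -0.89 for Irf5 to 0.06 for Irf9. The reference here was genes of every brightness, not matched to that of the member. Neither Stat3 nor Stat2 is therefore shown to differ from equally bright genes.

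The rest of the IRF and STAT families was measured by 7 genes, of which 4 were detected on all 4 arrays and on replicates 1 and 4, beside 42.4% and 45.9% of all genes. Stat5a, which relays growth factor and cytokine signals, read 2505, 2036, 1491 and 927, above the dim-probe value throughout. Stat4 and Irf8, named after their values were seen, were among those not detected on replicate 1 or 4. Irf8, a factor of the monocyte and macrophage lineage, read 4.28, 384, 17.7 and 4.85 through its only probe and was not detected on replicate 3 either. In the genome table, Stat5b, Stat5a and Stat3 are neighbours, and all 3 were detected on all arrays.

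Of the pathway lists, ligands had the lowest share detected on replicates 1 and 4. On both replicates 1 and 4, 1 of 8 measured ligand genes was detected, against 45.9% of all genes. That gene was Osm, a cytokine of the interleukin-6 family, at 41.5, 567, 104 and 16.5. On replicate 2 the flag was set for 7 of the 8 and on replicate 3 for 6, where 89.5% and 70.5% of all gene spots had it. None of the 8 passed the dim-probe value on all arrays, which 15.4% of all genes did. The flag counts on replicates 2 and 3 are near the shares beside them, which are of spots and not of genes. The count on replicates 1 and 4 was below the share of all genes, over only 8 genes and with no test made. Ifnb1, the early interferon, and Ifng were named after their values were seen. Ifnb1 read 3.30, 539, 114 and 3.34 on replicates 1 to 4 and was detected on replicates 2 and 3 alone. Ifng read 3.40, 92.1, 39.0 and 3.20 and was detected on no array.

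Receptor genes were detected on replicates 1 and 4 for 6 of 8 and Janus kinases for 3 of 4, beside 45.9% of all genes. Ifnar1, a chain of the type I interferon receptor, read 138, 196, 133 and 88.3 on replicates 1 to 4. Ifngr1, the ligand-binding chain of the interferon gamma receptor, read 3949, 2904, 1250 and 1034, above the dim-probe value on each. Jak1, which serves both receptors, read 2882, 1598, 802 and 1450, and Jak2 read 162, 542, 146 and 76.0. The kinase not detected on replicates 1 and 4 was Jak3, which is known mainly from lymphoid cells.

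Upstream of IRF3, IRF5 and IRF7, 9 of 12 measured sensors, adaptors and kinases were detected on replicates 1 and 4, beside 45.9% of all genes. Sting1, the adaptor of cytosolic DNA sensing, read 107, 490, 291 and 51.9, and Mavs, the adaptor of the RNA sensors, read 432, 387, 259 and 172. The 3 that were not detected on both were Ifih1, Tbk1 and Irak4, and Tbk1 and Irak4 missed on replicate 4 alone. Partners and corepressors of IRFs were detected there for 6 of 7. Irf2bp1 and Irf2bpl, which belong to the family of IRF2-binding proteins, read 58.1, 1571, 187 and 23.5, and 148, 429, 153 and 66.5.

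Inhibitors of the pathway were detected on replicates 1 and 4 for 9 of 12 genes and on all 4 arrays for 8, beside 45.9% and 42.4% of all genes. Socs3, which STAT3 induces and which blocks its receptor, read 440, 716, 233 and 253, whereas Cish read 269, 266, 189 and 70.4. Of 19 measured interferon targets, 16 were detected on replicates 1 and 4 and 14 on all arrays. Isg15, a ubiquitin-like protein, read 293, 995, 375 and 173, and Isg20, a nuclease, read 104, 647, 134 and 50.3. Of 10 STAT3 targets 8 were detected on all arrays. Bcl3, a nuclear relative of the NF-kB inhibitors, read 131, 861, 241 and 61.4. Over all these lists, each gene counted once, 58 of 86 measured genes were detected on all 4 arrays, against 42.4% of all genes.

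**Figure D4:**
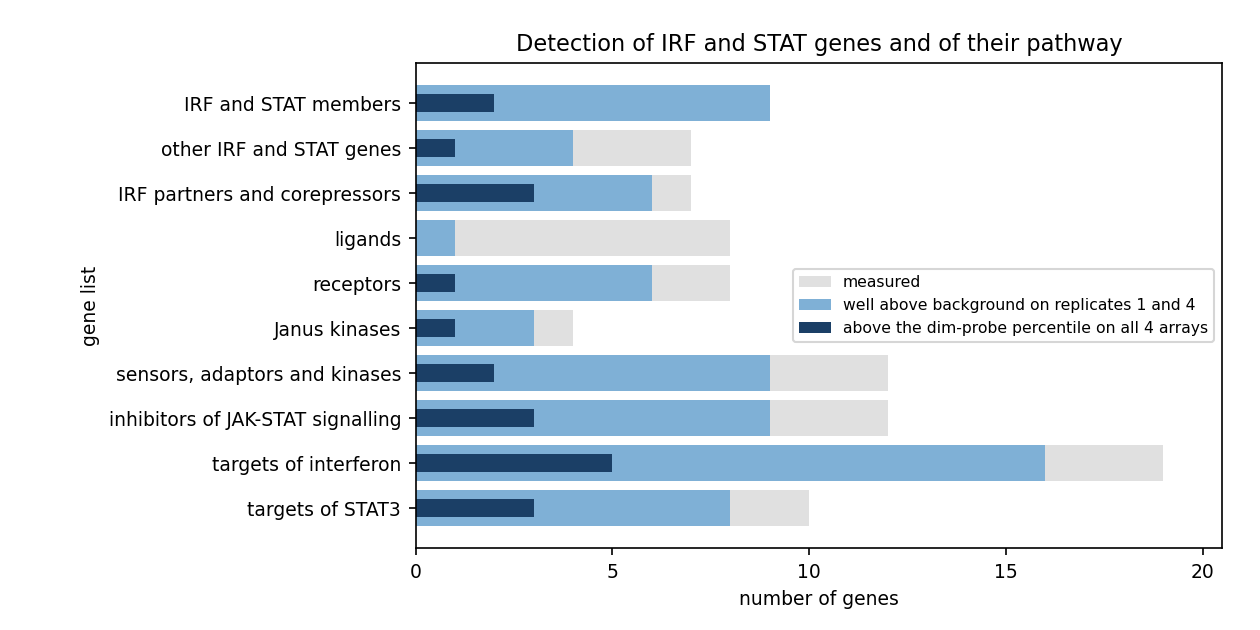
Number of genes of each list (bars) that were measured, that were detected on replicates 1 and 4, and that passed the 95th percentile of dim probes on all 4 arrays. For the members 9 of 9 pass the flag and 2 of 9 the percentile, and ligands are at 1 and 0 of 8. Of all genes, 45.9% pass the flag on replicates 1 and 4 and 15.4% the percentile on all 4 arrays.

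For each member detected on all arrays by its chosen probe, the gene with the most similar profile over the 4 arrays was sought among 6903 others, by the root-mean-square difference of levels centred on their own mean. For Irf1 this was Trappc4 at 0.01 log2 units, for Stat2 Cyc1 at 0.017, for Irf5 Fam234a at 0.019 and for Irf9 Tgm7 at 0.021. For Irf3 it was Entpd6 at 0.021, for Irf4 Grwd1 at 0.031, for Stat3 Nup210 at 0.033 and for Irf7 Nfu1 at 0.04. None of these 8 genes is a member or belongs to the pathway lists. All genes share the same 4 arrays and their scale, so the likeness is a description of signal over 4 points.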

How the data were processed

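RNA of 4 cultures, 1 group, was hybridised to 1-colour Agilent arrays. Per the file headers, Feature Extraction 11.0.1.1 gave the deposited intensity values, with background subtracted and spatial trends corrected within an array and no normalization between arrays. Other deposited columns are 0 or 1 flags. The deposited value table of the series holds the median spot intensity, equal on all 62976 spots.

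Spots flagged as non-uniform or population outliers were left out and repeated spots averaged on the log2 scale. Probes were named by unversioned accession through RefSeq (GRCr8), which named 21109 of 45598. The brightest probe gave the level of a gene. The design of the array names an older build, and no gene coordinates of it were used. No test was made, since there is 1 group here. The number of arrays, 4, limits the precision. All members were named, pathway genes by the first 2 of each list well above background on all arrays, and like profiles by the nearest gene. Values of some listed genes are not reported here.

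The members and lists were chosen with earlier results of these data known. Alternatives covered the detection flag and threshold, scaling, normexp (limma 3.58.1, offset 50, on the median spot and background signals), probes, outlier spots, arrays and source of values. The procedures were tested on simulated data.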

Additional observations from a re-analysis of the deposited data

How the results depend on the processing

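The count of 8 members well above background on all arrays, beside 42.4% of all genes, was 9 with the scanner's weaker flag of positive and significant signal, which 59.8% of all genes passed. It was 8 with the brightest probe alone (41.8%) and with outlier spots kept (42.4%), and 9 on replicates 1 and 4 alone (45.9%). Leaving out 1 replicate gave 8 to 9, beside 42.6% to 46.7% of all genes. It fell to 3 against the dimmest spike-in and to 2 against the 95th percentile of dim probes, each beside 15.4% of all genes; the latter is an alternative chosen after seeing the data, and both are limited by replicates 2 and 3. The median level of 1.48 became -1.35 when arrays were scaled on the probes well above background on all of them, where that of all genes was -4.26, because the reference percentile itself is then higher. The median was 0.89 with quantile normalization, beside -1.31 for all genes, and 1.12 with normexp, beside -0.48. On replicates 1 and 4 alone it was 2.93, beside -2.15, so the gap between members and all genes was narrower with normexp and wider on these arrays than the main 1.48 beside -1.43. Without 1 replicate it was 0.95 to 2.22. Spike-in scaling leaves a mean over the 4 arrays as it was by construction. For single genes, all 9 levels moved by more than 1 SD with that reference percentile and 0 of 9 with any other alternative, but the SD is itself 1.11 to 2.10. Of the differences between replicates 1 and 4, that of Stat3 went from 0.15 to 0.59 with normexp and 0.60 in the deposited value table, and that of Irf7 from -0.48 to -0.21 and -0.23. That of Irf3 became 0.39 with normexp. Averaging both probes gave 0.22 for Irf4, -0.74 for Irf2 and 0.48 for Irf9. The second probes of Irf4 and Irf2 were detected on neither replicate 1 nor replicate 4. The cause of these shifts was not tested. No paired analysis was possible because there is 1 group. Signal over background on replicates 2 and 3 limits every statement about dim members.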

Other observations

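Of the interferon targets, 1 had the opposite pattern to the dim probes, which were bright on replicates 2 and 3. Mx1, an antiviral GTPase that interferon induces, was well above background on replicates 1 and 4 at 112 and 50.5 units, and was not on replicates 2 and 3, at 42.9 and 28.1. Over all genes, 119 were like Mx1 in this, against 4578 with the opposite pattern, detected on replicates 2 and 3 alone. Usp18, which removes ISG15 from proteins and restrains the interferon receptor, read 69.0, 121, 86.6 and 39.3 and was not well above background on replicate 2. Both were named after their values were seen.

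Members of the interferon target list differed in detection. Ifit1 and Rsad2 read 3.41 and 3.44 on replicate 1 and 3.06 and 3.48 on replicate 4, and neither was well above background there. Psmb8 and Psmb9, subunits of the immunoproteasome, read 9744 and 4353 on replicate 1 and were above the dim-probe value on all 4 arrays, as were Bst2, Ifi27 and Mx2. These genes were named after their values were seen as well.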
